A study of Homo sapiens with 6 samples.

Results

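Some stretches of the genome are transcribed as part of more than 1 annotated gene on the same strand, and RNA recovered from them cannot be given to a single gene. Such places were listed among clusters of nuclease-protected RNA, short intronic places in protein-coding genes from which protected fragments were sequenced. A cluster was taken as a several-gene cluster when its gene field named more than 1 gene, after repeated rows were dropped. There were 3052 of them, 0.833% of the 366429 clusters in the WT list (exact 95% interval 0.804 to 0.863%) and 1.62% of the 188027 clusters in the F125A list (1.57 to 1.68%). They named 418 genes in 238 combinations.

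The RNA came from purified complexes of FLAG-tagged Rbfox1 and LASR in HEK293 Flp-In Rbfox2 KO#7, a line made from human embryonic kidney cells, in which RBFOX2 is knocked out in every group and a transgene can be placed at a single site. The WT group (3 libraries) carried Rbfox1(WT), the F125A group (2 libraries) carried Rbfox1(F125A), and 1 control library came from the same line with no transgene and was not analysed here. There was 1 list for each Rbfox1 group, so there is no error between replicates, and the intervals cover counting error only. The lists give places without read counts, so depth is unknown, and a list of places cannot be checked against cell markers.

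Rbfox proteins regulate alternative splicing by binding GCAUG in introns near exons, and F125A changes a phenylalanine of the RNA recognition motif that contacts this sequence. LASR is an assembly of other splicing proteins, among them hnRNP M, hnRNP H and hnRNP C, which bring RNA contacts of their own. Genes share introns in several ways: a readthrough gene is annotated where transcription runs through the end of a gene into the next and both are spliced into a joined RNA, named by both symbols with a hyphen; a small gene may lie inside a larger one; and in clustered families such as the gamma protocadherins, alternative first exons are spliced to common last exons.

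For 17 of the 3052 clusters the whole sequence could be read from RefSeq's windows around annotated gene starts (GRCh38.p14, 250 nt before to 50 nt after a start), and the other 3035 have no sequence here. The motif GCATG was searched in the direction of the transcript and on the opposite strand. It was found in 3 of the 17, each time in the direction of the transcript. They lay in introns of SPECC1L, which encodes a protein that links actin and microtubules, and of RTEL1, a DNA helicase. All 3 lay in windows of other genes, annotated on the opposite strand, whereas 11 of the 17 lay in windows of a gene on their own strand. These 3 are shown because they hold the Rbfox motif, in capitals, in the DNA letters of the transcribed strand from 5′ to 3′.
SPECC1L and SPECC1L-ADORA2A, chr22:24402648-24402726, plus strand: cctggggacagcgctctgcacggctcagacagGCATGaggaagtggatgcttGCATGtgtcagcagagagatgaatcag
SPECC1L and SPECC1L-ADORA2A, chr22:24402785-24402835, plus strand: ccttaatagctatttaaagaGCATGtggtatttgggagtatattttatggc
RTEL1 and RTEL1-TNFRSF6B, chr20:63678474-63678529, plus strand: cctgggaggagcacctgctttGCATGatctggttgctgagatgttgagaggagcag

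The first of them held GCATG 2 times. The following 7 are shown as examples of clusters beside an annotated gene start that falls inside the transcript of a neighbour. None of the 7 holds the start on which its window is built: each lay wholly upstream of that start, from 14 to 217 nt away. All of them still lay inside the RefSeq bounds shared by the genes named, which begin further upstream. For EGLN2 the bounds begin at 40799191 and for PABPN1 at 23321457. On the minus strand they begin at 7910788 for TXNDC5 and at 241640369 for CHML. Of the 17 clusters, 13 lay wholly upstream of the start in their window. The windows reach 250 nt before a start and 50 nt after it, so this count largely follows from the windows. Upstream is counted along the gene of the window, which lay on the strand of the cluster for 11 of the 17 and on the opposite strand for the others. In EGLN2, an oxygen-sensing prolyl hydroxylase, TXNDC5, a disulfide isomerase of the endoplasmic reticulum, and PABPN1, a nuclear poly(A)-binding protein, the shown clusters were 73.8 to 94.3% G and C. In CHML, a Rab escort protein, the cluster was 22.6% G and C.
EGLN2 and RAB4B-EGLN2, chr19:40799322-40799360, plus strand: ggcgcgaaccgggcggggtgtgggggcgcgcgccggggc
EGLN2 and RAB4B-EGLN2, chr19:40799373-40799428, plus strand: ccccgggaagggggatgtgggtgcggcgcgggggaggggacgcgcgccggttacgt
EGLN2 and RAB4B-EGLN2, chr19:40799435-40799479, plus strand: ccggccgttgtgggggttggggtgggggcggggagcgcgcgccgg
BLOC1S5-TXNDC5 and TXNDC5, chr6:7910260-7910294, minus strand: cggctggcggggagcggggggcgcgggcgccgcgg
BLOC1S5-TXNDC5 and TXNDC5, chr6:7910122-7910158, minus strand: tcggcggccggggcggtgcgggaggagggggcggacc
BCL2L2-PABPN1 and PABPN1, chr14:23321886-23321992, plus strand: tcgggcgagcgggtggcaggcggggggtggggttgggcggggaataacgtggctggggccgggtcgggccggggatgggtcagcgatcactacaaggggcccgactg
CHML and OPN3, chr1:241636308-241636360, minus strand: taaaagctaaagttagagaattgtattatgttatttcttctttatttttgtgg

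Runs of G were visible in most of the 17. GGGG stood in 13 (76.5%, exact 95% interval 50.1 to 93.2%), TTTTT in 1 and TGCATG, which contains GCATG, in 2, and no count rose when the opposite strand was searched too. The 3 clusters with GCATG are 17.6% of the 17, with an interval of 3.80 to 43.4%. Among single-gene clusters of 35 to 117 nt, the lengths of the 17, that lay wholly in the same windows, GCATG stood in the transcript direction in 112 of 903 WT clusters (12.4%, 10.3 to 14.7%) and in 24 of 776 F125A clusters (3.09%, 1.99 to 4.57%), and GGGG in 74.1% and 81.8%. Over all 35116 windows of 300 nt, 29.5% held GCATG on either strand, 9.46% TGCATG, 39.2% TTTTT and 89.6% GGGG. In the direction of the gene of the window the shares were 19.6, 5.23, 24.9 and 75.1%. The windows are longer than the clusters, so these shares are not matched to them. With 17 sequences, the share for several-gene clusters cannot be placed apart from that of the WT list, which its interval holds. Its interval lies above the F125A share of 3.09% but overlaps the F125A interval, and the difference was not tested.

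The several-gene clusters were the same in both lists. All 3052 had the same start, end, strand and gene field in the WT and the F125A list, and neither list held one that the other lacked. They stood in a stretch of 5433 consecutive rows that was identical and in the same order in both. Outside that stretch, 3558 of 184778 single-gene F125A clusters had exactly the start and end of a WT cluster, a share of 1.93% (exact 95% interval 1.86 to 1.99%), while 85.3% overlapped one by at least 1 nt. If the stretch was written to both lists from a single set of calls, which the sources used here do not say, the 3052 clusters and the share of 1.62% need not describe F125A at all, and the same holds for WT. The several-gene clusters thus cannot compare the proteins, and from the lists their recovery with WT and with F125A cannot be told apart. All values below are given once for both lists, and only the single-gene clusters of the same genes are compared between them.

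**Figure D1:**
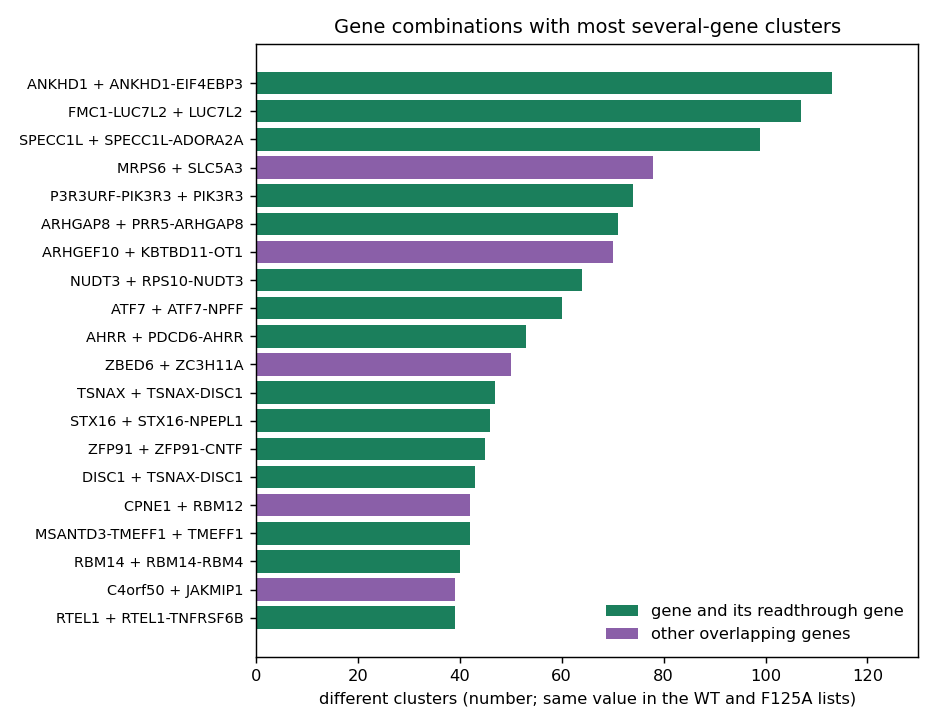
The 20 gene combinations with most several-gene clusters; the x axis is the number of different clusters, which is the same in both lists, and colours mark combinations with a readthrough gene and other overlaps. ANKHD1 with its readthrough gene leads with 113, and the first 15 combinations hold 33.4% of all 3052 clusters.

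Most of the clusters lay in genes that are annotated with a readthrough partner. Of the 3052 clusters, 2457 (80.5%, exact 95% interval 79.1 to 81.9%) named a readthrough gene, in 168 combinations. Another 560 (18.3%) named other overlapping genes in 55 combinations, 23 named members of other gene families, 11 named gamma protocadherins and 1 named UGT1A genes. No field repeated a gene name. A total of 2999 named 2 genes, 42 named 3 and 11 named 7 to 22. The number per combination was uneven: 29 combinations held at least as many clusters as all others together, the median was 6 and 48 combinations had a single cluster.

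ANKHD1, an ankyrin repeat and KH domain protein, shared 113 clusters with the readthrough gene that joins it to EIF4EBP3, a translational repressor, on chromosome 5 (shared bounds 140401833 to 140539849, plus strand). They ran over nearly all of the gene, from 140402560 to 140536525, at 0.819 per kb of shared bounds, exons included. Only 1 cluster was shared by the readthrough gene and EIF4EBP3, which is 1.92 kb long. LUC7L2, a protein associated with the U1 snRNP that takes part in choosing 5′ splice sites, shared 107 with FMC1-LUC7L2 on chromosome 7 (139341337 to 139423454), or 1.30 per kb. SPECC1L shared 99 with SPECC1L-ADORA2A on chromosome 22 (24270831 to 24417738), and ADORA2A, an adenosine receptor gene, shared none with it. These 3 combinations together had 319 clusters, 10.5% of the total.

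Several signalling genes followed. PIK3R3, a regulatory subunit of phosphoinositide 3-kinase, had 74 clusters shared with P3R3URF-PIK3R3, and ARHGAP8 71 with PRR5-ARHGAP8. NUDT3, a hydrolase of diphosphoinositol phosphates, had 64 with RPS10-NUDT3 and ATF7, a transcription factor, 60 with ATF7-NPFF. AHRR, the repressor of the aryl hydrocarbon receptor, had 53 with PDCD6-AHRR. Among these, the clusters were densest in NUDT3 and ARHGAP8, at 0.607 and 0.644 per kb, and sparsest in AHRR, at 0.455.

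The genes joined in TSNAX-DISC1 on chromosome 1 were unequal. TSNAX, a partner of the RNA-binding protein translin, shared 47 clusters with it over 37.9 kb (1.24 per kb), and DISC1, a scaffold protein, 43 over 414 kb (0.104 per kb). DISC1 also had clusters of its own, 71 in the WT and 31 in the F125A list, whereas TSNAX had none. STX16, a syntaxin of the Golgi, had 46 clusters with STX16-NPEPL1 (1.63 per kb), and the zinc finger gene ZFP91 had 45 with ZFP91-CNTF (1.06 per kb).

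Among combinations with at least 10 clusters, the densest lay in short shared parts. BCL2L2, a relative of BCL2, had 15 clusters shared with BCL2L2-PABPN1 over 4.92 kb (3.05 per kb). RBM14, a paraspeckle protein, had 40 shared with RBM14-RBM4 over 13.3 kb (3.01 per kb), and RBM4, a splicing regulator, 22 (2.83 per kb). RPS10, a protein of the small ribosomal subunit, had 24 shared with RPS10-NUDT3 (2.79 per kb) and EGLN2 25 shared with RAB4B-EGLN2 (2.70 per kb). They are the 5 highest of the 95 combinations with at least 10 clusters, chosen by this value, so their order is a description only.

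Most readthrough genes shared clusters with both of the genes they join, and more of them did so with the first. For 102 readthrough genes both joined genes were known in RefSeq. Clusters shared with the first-named gene were present for 89 of them and with the second-named for 75, and 62 had both. There were 1337 with the first and 1137 with the second, with a cluster that names 2 readthrough genes counted for each. The first gene had more in 59 and the second in 39. The first-named gene was the upstream one in 99 (in FMC1-LUC7L2 and POC1B-GALNT4 the joined genes overlap, and BORCS7-ASMT could not be placed), and it was the longer in 54. Per kb of annotated bounds there were 0.376 clusters in first and 0.256 in second genes.

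The joined genes were seldom named alone. For 83 of the 102 readthrough genes, neither list held a single-gene cluster of either joined gene outside the identical stretch, and for 43 of these the readthrough gene had none of its own either. A readthrough gene mostly spans the bounds of the genes it joins, so these counts largely follow from the annotation. Clusters in RBM14, RBM4, LUC7L2, SPECC1L or ANKHD1 thus appear only under a combined name, and a count of clusters per single gene leaves them out. Over all 202 joined genes, there were 336 single-gene clusters in the WT and 181 in the F125A list, 1.86 WT for each F125A (exact binomial interval 1.54 to 2.24), beside 1.97 (1.95 to 1.98) over all single-gene clusters. The ratio treats clusters as independent and compares lists, not replicates.

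Clusters that named a readthrough gene alone lie outside the identical stretch and can be compared between the lists. The 102 readthrough genes had 296 clusters of their own in the WT list and 150 in the F125A list, a ratio of 1.97 (1.62 to 2.42), which does not differ from 1.97 over all single-gene clusters beyond counting error. At least 1 was present for 42 of the genes with WT, for 34 with F125A and for 31 with both. Of the 150 F125A clusters, 83.3% (76.4 to 88.9%) overlapped a WT cluster, and of the 296 WT clusters 43.2% (37.5 to 49.1%) overlapped an F125A cluster; over all single-gene clusters these shares were 85.3% and 44.7%. The median length was 57 nt with WT and 62 nt with F125A.

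**Figure D2:**
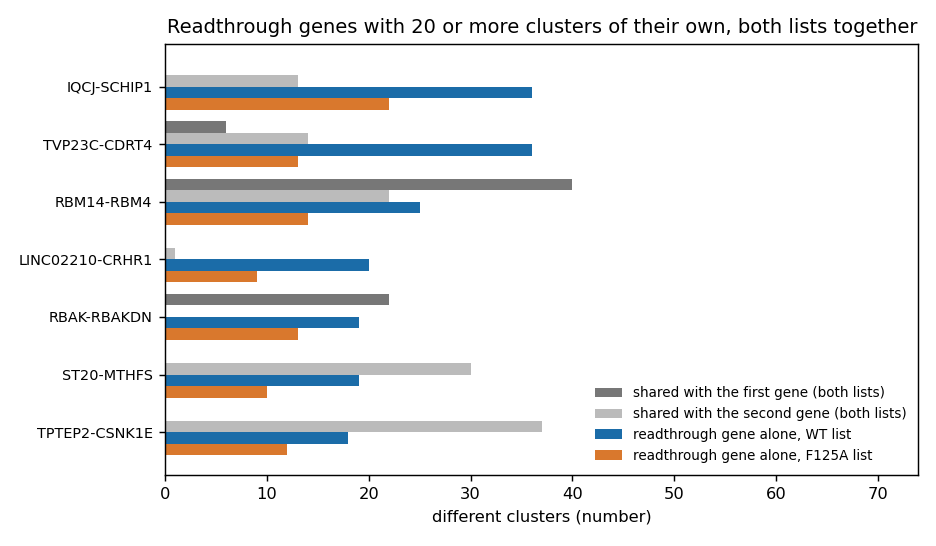
Clusters of the readthrough genes that had 20 or more clusters of their own in both lists together. Bars give the number of clusters shared with the first-named or second-named gene, which is the same in both lists, and the number named for the readthrough gene alone in the WT and in the F125A list. All 7 had more WT than F125A clusters of their own, as the longer WT list has in general.

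Readthrough genes with 20 or more clusters of their own leaned no further to WT than the lists did, within counting error. IQCJ-SCHIP1 had 36 WT and 22 F125A clusters (ratio 1.64, exact interval 0.937 to 2.92) and TVP23C-CDRT4 36 and 13 (2.77, 1.43 to 5.69). RBM14-RBM4 had 25 and 14 (1.79, 0.893 to 3.72), LINC02210-CRHR1 20 and 9 (2.22, 0.967 to 5.54) and ST20-MTHFS 19 and 10 (1.90, 0.841 to 4.57). RBAK-RBAKDN had 19 and 13 (1.46, 0.685 to 3.22) and TPTEP2-CSNK1E 18 and 12 (1.50, 0.684 to 3.41). Every one of these 7 intervals holds 1.97. PRR5-ARHGAP8, singled out after its values were seen, had fewer WT than F125A clusters of its own, 4 and 7. ATF7-NPFF had 1 and 2, and CORO7-PAM16, SENP3-EIF4A1 and PTGES3L-AARSD1 had 0 and 1 each.

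As listed, clusters were sparser between the joined genes than inside them. In the 84 readthrough genes whose joined genes lie at least 1 kb apart with the first-named upstream, the stretches between them span 1329 kb. They held 134 WT clusters named for the readthrough gene (0.101 per kb) and 57 F125A clusters (0.0429 per kb). The first genes of the same 84 held 0.365 shared clusters per kb and the second genes 0.218. The shared clusters come from the identical stretch and those in between from each list outside it. Place and calling thus cannot be told apart here. A readthrough gene is counted only if a joined gene held at least 1 shared cluster, which raises the values inside the joined genes by an amount that was not tested, and clusters in the stretch that were assigned to another gene are not in the count.

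The pattern did not hold for every gene. In 54 of the 84 no WT cluster of the readthrough gene lay in between, and in 8 the WT value in between was above that of both joined genes, among them TVP23C-CDRT4 with 0.548 per kb against 0.0980 and 0.443. The F125A value was above both in 0 of the 84, and these counts carry no test. In RBM14-RBM4 on chromosome 11 the stretch was nearly as dense as RBM14. Between RBM14 and RBM4 (66629935 to 66638702, 8.77 kb) it held 25 WT clusters, or 2.85 per kb, beside 3.01 per kb of shared clusters in RBM14, and 14 F125A clusters, or 1.60 per kb. In BCL2L2-PABPN1 the stretch held 6 WT and 3 F125A clusters over 9.71 kb (0.618 and 0.309 per kb), against 3.05 and 2.55 shared clusters per kb in BCL2L2 and PABPN1. For IQCJ-SCHIP1, ST20-MTHFS and RBAK-RBAKDN, no cluster of their own lay between the bounds of the joined genes.

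**Figure D3:**
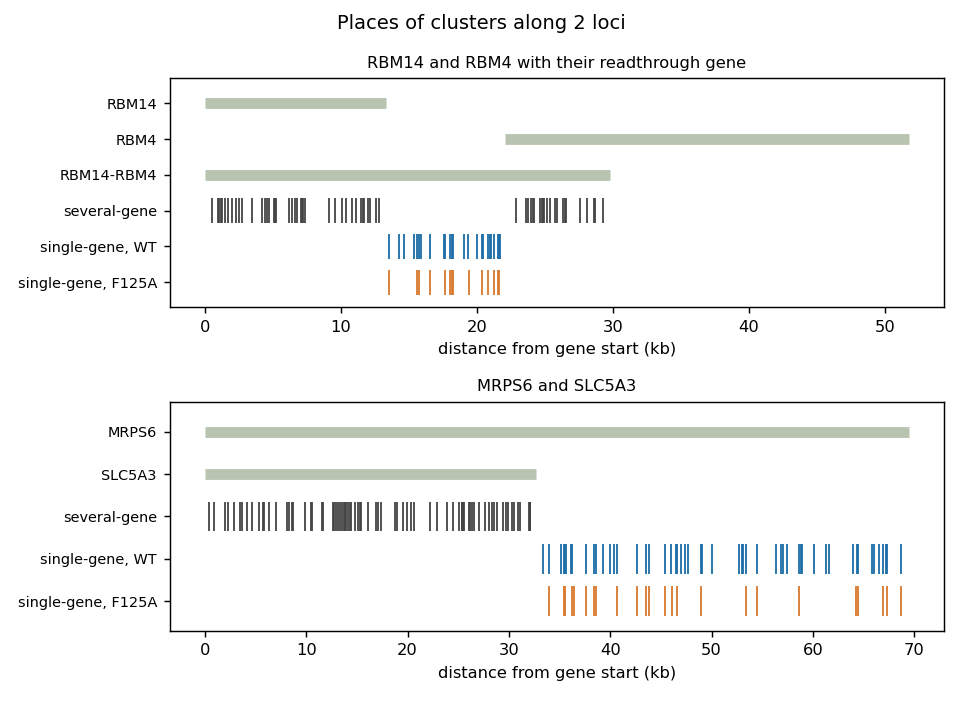
Places of clusters along the RBM14 and RBM4 locus and along MRPS6 and SLC5A3. The x axis is the distance from the annotated gene start in kb, pale bars are RefSeq gene bounds, and each tick is the middle of a cluster. Several-gene clusters (grey) lie in the parts that 2 genes share. Single-gene clusters (blue for WT, orange for F125A) lie where RBM14-RBM4 (25 and 14) or MRPS6 (53 and 24) is alone, and the part that RBM4 has to itself holds none.

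Genes that overlap without a readthrough name often shared a start or lay inside one another. Of the 60 such pairs, 7 do not overlap in RefSeq. In 46, with 403 clusters, a gene lay wholly inside the bounds of the other, in some with both bounds the same, as for ZBED6 and ZC3H11A. In all 46 the shorter gene, or both genes where the bounds were the same, had no single-gene cluster in either list. The choice of nested pairs largely fixes this count, because a place in the shorter gene also lies in the longer. MRPS6, a protein of the small mitochondrial ribosomal subunit, and SLC5A3, a sodium and myo-inositol cotransporter, share their annotated start on chromosome 21 (34073578 to 34106260 shared). They had 78 several-gene clusters there, 2.39 per kb, and the rest of MRPS6 had 53 WT clusters (1.44 per kb) and 24 F125A clusters (0.653 per kb).

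The same form was seen in other pairs. CPNE1, a calcium-dependent phospholipid-binding copine, and RBM12, an RNA-binding protein, shared 42 clusters over 16.0 kb (2.63 per kb), and the rest of CPNE1 had 63 WT (2.75 per kb) and 38 F125A (1.66 per kb). ZC3H11A, a zinc finger protein of mRNA export, and ZBED6, a transcription factor derived from a transposon, shared 50 clusters over the same bounds of 58.5 kb. CHML and OPN3 shared 21 clusters over 11.5 kb (1.82 per kb), while the other 35.7 kb of OPN3 had 1 cluster in each list. Beside CHML the outer gene was thus nearly empty, whereas beside RBM12 it was as full in the WT list as the shared part.

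In POLN, a DNA polymerase that contains HAUS3, a subunit of the augmin complex of the spindle, the shared 13.8 kb held 12 clusters (0.871 per kb). The remaining 156 kb held 32 WT clusters (0.205 per kb) and 3 F125A clusters (0.0192 per kb). In LEPR, the leptin receptor gene, the 15.3 kb shared with LEPROT held 12 (0.782 per kb) and the other 206 kb held 48 WT (0.233 per kb) and 16 F125A (0.0778 per kb). RAD54B, a DNA repair helicase, shared 14 with FSBP (1.52 per kb) and had 81 WT and 29 F125A clusters of its own (0.862 and 0.309 per kb). CPNE1, OPN3, POLN, LEPR and RAD54B were named after their values were seen. Because a pair is known only through at least 1 shared cluster, a short shared part cannot have a low value, and no count over the pairs is given. In these pairs too, shared clusters come from the identical stretch and the others from each list outside it. Place and calling cannot be told apart.

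All but 1 of the 23 clusters of other gene families named HOX genes. HOXA3 shared 9 clusters with HOXA5, 4 with HOXA4 and 3 with HOXA6, all of them genes for transcription factors that set position along the body axis, and HOXB3 shared 6 with HOXB4. The shared parts were 2.23 to 2.84 kb, with 1.26 to 3.42 clusters per kb. HOXA3 also had 100 WT and 49 F125A clusters of its own, and HOXB3 140 and 99. The leukotriene receptor genes LTB4R and LTB4R2 shared 1 cluster.

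In the gamma protocadherin locus, the number of gene names grew along the locus. PCDHGA1 (chromosome 5, 141330514 to 141512975) starts furthest upstream, and each later gene has a variable first exon of its own joined to the same last exons, so a place further downstream lies in the introns of more genes. There were 11 clusters: the first, at 16.6 kb from the start of PCDHGA1, named 3 genes (PCDHGA1, PCDHGA2 and PCDHGA3), those at 37.3 and 46.6 kb named 7 and 9, and those at 71.3 and 75.5 kb named 13 and 14. Further on, clusters at 93.2 and 114 kb named 18 and 19, 3 clusters at 152 to 153 kb named 20, and the last, at 165 kb (141495934 to 141496020), named 22, from PCDHGA1 to PCDHGC5. Neither list held a single-gene cluster on that strand within the bounds of PCDHGA1. UGT1A genes, which encode glucuronidation enzymes in the same arrangement on chromosome 2, had 1 cluster that named 8 genes (233732126 to 233732182).

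**Figure D4:**
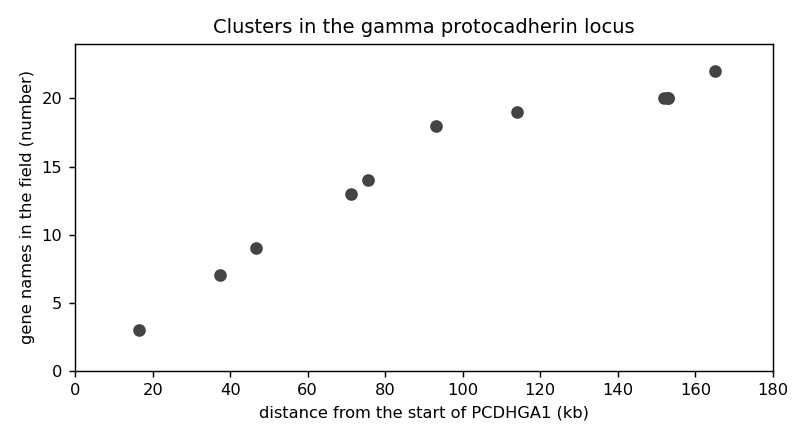
The 11 several-gene clusters of the gamma protocadherin locus, the same in both lists. The x axis is the distance from the start of PCDHGA1 in kb and the y axis the number of gene names, which goes from 3 at 16.6 kb to 22 at 165 kb.

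Several-gene clusters were as short as other clusters in the middle of their range and longer at its end than those outside the identical stretch. Their median length was 61 nt with quartiles of 49 and 79 nt, beside 60 nt (48 to 76) for single-gene WT clusters and 64 nt (50 to 82) for single-gene F125A clusters. Those over 200 nt made up 0.983% (30 clusters, exact interval 0.664 to 1.40%), against 0.0372% (0.0312 to 0.0440%) with WT and 0.113% (0.0983 to 0.130%) with F125A. Of the 197 single-gene clusters of the stretch, 4 exceeded 200 nt (2.03%, 0.556 to 5.12%), so the long end was not particular to several-gene clusters. The longest, of 999 nt, lay in C4orf50 and JAKMIP1 on chromosome 4 (6125855 to 6126853), while the longest single-gene clusters outside the stretch had 322 nt with WT and 331 nt with F125A. AHRR with its readthrough gene held 3 of the 10 longest, of 434, 376 and 373 nt, and CDRT4 with TVP23C-CDRT4 held 2, of 349 and 344 nt.

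No several-gene cluster touched the next. Among single-gene clusters, the end of a cluster was the start of the next in 21219 of 363133 neighbouring pairs with WT (5.84%, 5.77 to 5.92%) and in 9725 of 184731 with F125A (5.26%, 5.16 to 5.37%), but in none of the 3007 pairs of several-gene clusters, which allows a share of up to 0.123%. When touching clusters were joined, an alternative chosen after seeing the data, 0.535% of single-gene WT clusters (0.511 to 0.560%) and 0.851% of F125A clusters (0.808 to 0.895%) exceeded 200 nt. The several-gene share of 0.983% then lay above the WT interval and its own interval held the F125A share. The 197 single-gene clusters of the identical stretch had no touching neighbours either. The sources used here do not say how this stretch was called.

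**Figure D5:**
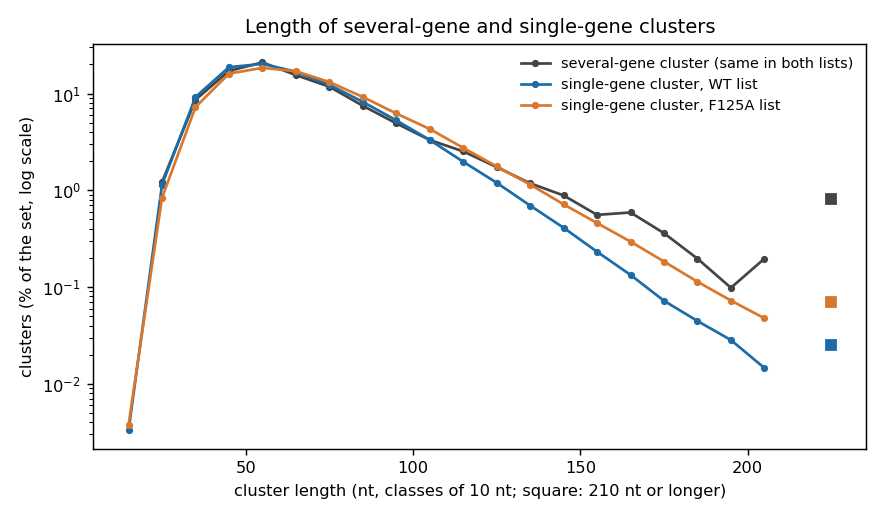
Length of several-gene clusters and of single-gene clusters of each list. The x axis is length in classes of 10 nt, with squares for 210 nt or longer, and the y axis the percent of the set on a log scale; the sets lie close together around their medians of 60 to 64 nt and separate towards the long end, where 25 several-gene clusters (0.819%) reach 210 nt.

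Rows of the identical stretch were often repeated, those of several-gene and of single-gene clusters alike. In each list 1844 of the 3052 (60.4%, 58.7 to 62.2%) appeared in more than 1 row. So did 185 of the 197 single-gene clusters of the stretch (93.9%, 89.6 to 96.8%), against 1.31% of single-gene clusters outside it with WT and 1.42% with F125A. For all 11 clusters that named more than 3 genes, the number of identical rows was the number of genes named. Clusters that named fewer were listed once (1208), 2 times (1826) or 3 times (7).

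The median spacing of several-gene clusters was near that of the WT list as deposited. The gap to the next cluster on the strand had a median of 673 nt, beside 683 nt between single-gene WT clusters and 1189 nt between single-gene F125A clusters, and 58.8%, 58.9% and 46.5% of the gaps were under 1 kb. As deposited, gaps under 50 nt were fewer than with WT, 10.4% (9.31 to 11.5%) against an interval of 13.9 to 14.1%, and 11.5% with F125A. Touching clusters made up 21219 of the 50736 such gaps with WT and 9725 of the 21161 with F125A, but 0 of the 312 several-gene ones. The order of these shares with touching clusters joined was not tested, so it holds for the lists as deposited only. With touching clusters joined, the WT median gap was 777 nt. Per kb of shared bounds there were 0.371 clusters over the 231 combinations whose RefSeq bounds overlap. The 9 gamma protocadherin combinations, with 11 clusters, lie in nested parts of 1 locus of 182 kb. Their parts, of up to 169 kb, were each counted in full, which lowers the several-gene values by an amount that was not tested. Over the bounds of genes that no combination named, there were 0.385 WT and 0.215 F125A clusters per kb. The shared parts were shorter than such genes, and by class of length the order changed: under 30 kb the values were 0.685 for several-gene clusters, 0.522 for WT and 0.395 for F125A, at 30 to 100 kb 0.348, 0.467 and 0.276, and over 100 kb 0.220, 0.288 and 0.142. Counted in this way, the several-gene value above 30 kb lay between those of the lists. Its order against WT with the locus counted 1 time was not tested.

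Within the lists, several-gene and single-gene clusters almost never met. No several-gene cluster overlapped a single-gene cluster of the WT list (0 of 3052, exact upper bound 0.121%), and 2 overlapped one of the F125A list (0.0655%, 0.00794 to 0.237%). No single-gene cluster overlapped another of its own list, so a value of 0 within a list is not a trait of several-gene clusters. The first of the 2 lay at the start of ARHGAP8 on chromosome 22 (44752619 to 44752700), where the F125A list has a PRR5-ARHGAP8 cluster at 44752557 to 44752630 that shares 12 nt. The other lay in CSNK2B, the regulatory subunit of casein kinase 2, and LY6G5B on chromosome 6 (31669991 to 31670066), inside an F125A cluster of LY6G5B at 31669988 to 31670072.

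The combinations did not spread evenly over the genome. Chromosome 22 held 7.77% of several-gene clusters but 2.23% of single-gene WT and 2.55% of F125A clusters, and chromosome 20 7.14% against 2.31% and 2.37%. The combinations with most clusters on these and on chromosome 21 were of unequal weight: SPECC1L gave 99 of the 237 on chromosome 22, STX16 46 of the 218 on chromosome 20 and MRPS6 78 of the 98 on chromosome 21. Chromosome X held 0.524% against 3.08% and 3.39%. The plus strand held 62.6% of several-gene clusters (60.9 to 64.3%), beside 52.3% and 51.8% of single-gene clusters. Without the 15 combinations with most clusters, an alternative chosen after seeing the data, its share was 53.6%.

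A larger share of these clusters lay near a gene start or end. Within 1 kb after the start of a named gene other than the readthrough gene there were 186 (6.09%, 5.27 to 7.00%), beside 2.01% of single-gene WT and 3.47% of F125A clusters. Within 5 kb before a gene end lay 560 (18.3%, 17.0 to 19.8%), against 3.82% and 5.27%. A combination offers several starts and ends, and the shared parts were short, so these shares are not matched. Of all 3052, 2879 (94.3%, 93.5 to 95.1%) lay wholly inside the RefSeq bounds shared by every gene named. Most of the remaining 173 were the 168 of 7 combinations whose genes do not overlap in RefSeq, among them ARHGEF10 with KBTBD11-OT1 (70 clusters), C4orf50 with JAKMIP1 (39) and PLD5P1 with ZNF37A (26). The sources used here do not name the gene annotation behind the lists.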

How the data were processed

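Nuclease-protected RNA was sequenced from 3 WT, 2 F125A and 1 control sample, grouped by the labels. The submitters' processing notes name cutadapt, STAR and hg38. For the cluster caller, its threshold, gene annotation and pooling, the sources used here give nothing. The deposited lists hold, per the file headers, chromosome, start, end, gene, region and strand, with no counts. Starts, taken as 0-based, are printed 1-based. Repeated rows were dropped. Names matched RefSeq GRCh38.p14 by symbol (415 of 418) or synonym (3), and strands, known for 340 names, never opposed the clusters. A name of 2 symbols joined by a hyphen was called a readthrough gene. Single-gene values leave out the 197 single-gene clusters of the identical stretch, unless stated. The motif search is an exception: any of the 197 that lay wholly in the windows stayed in the sets of both lists. Overlap means at least 1 nt on the same strand, and intervals are exact (Clopper-Pearson) 95% intervals. Python 3.11.15 with pandas 2.3.3 and scipy 1.17.1 was used, and the overlap and interval code was tested on simulated data. With a single list for each group, conditions were not tested.

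Members and lists were chosen with earlier results of these data known. Named were the 15 combinations with most clusters, up to 5 of each group, the 5 with most names and the 5 densest with at least 10 clusters. Other genes named were chosen after their values were seen. No genome was used, so motifs were searched only in clusters inside RefSeq windows. Alternatives covered repeats, merging below 50 nt, overlap rules, left-out combinations, name matching and motif length.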

Additional observations from a re-analysis of the deposited data

How the results depend on the processing

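With repeated rows kept, the several-gene clusters count 5051 in place of 3052 in each list. The share on the plus strand, 62.6%, was 53.6% without the 15 combinations with most clusters, so it rests on those loci. Merging clusters closer than 50 nt left 2740 clusters, a median length of 62 nt, 238 combinations and 101 clusters for ANKHD1. Joining touching clusters moved the single-gene share over 200 nt from 0.0372% to 0.535% (WT) and from 0.113% to 0.851% (F125A), while the several-gene share stayed 0.983%. Several-gene clusters within 50 nt of a single-gene cluster were 0.0328% (WT) and 0.131% (F125A), where 0% and 0.0655% overlapped one. Further, the median gap within a combination was 588 nt, and GCATG stood in 18.8% of clusters extended by 20 nt. The motif values rest on 17 sequences. Leaving out a replicate was not possible, because each list stands for its group. No paired analysis was possible because the lists hold no values per replicate.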

Other observations

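The stretch that is identical in both lists also held 197 single-gene clusters of 6 genes. MATR3, a nuclear matrix RNA-binding protein and LASR subunit, had 80, with 24 WT and 22 F125A clusters outside the stretch. TBCE, a tubulin folding cofactor, had 48 inside and 2 WT and 0 F125A outside, and PINX1, a telomerase inhibitor, 41 inside and 4 and 0 outside. HERC3 and ST6GALNAC6 had 11 each and none outside, and MKKS, a chaperonin-like protein, had 6 inside and 2 WT and 1 F125A outside. TBCE, PINX1 and ST6GALNAC6 are also named in several-gene clusters, with GGPS1 (16 clusters), SOX7 (6) and AK1 (5). The lists therefore do not compare the proteins at these places either.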
